A study of Mus musculus with 16 samples.

Results

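Jarid2-only peaks away from start sites were 519 of the 4992 peaks listed for total Jarid2 in E14 embryonic stem cells (ESC), or 10.4% of them. They were chosen by the measured peak lists themselves. A Jarid2 peak was a member when it overlapped no peak of Jarid2 dimethylated at lysine K116 (Jarid2-K116me2), not even by 1 bp, and when its midpoint lay more than 1000 bp from every annotated transcript start. No peak of the other antibody was found at 1045 of the 4992 Jarid2 peaks (20.9%). Of these, 46 lay in a repeat array on chromosome 6 that was left out, 480 lay within 1000 bp of a start, and 519 remained. The absence of a Jarid2-K116me2 peak and the distance from a start are therefore not findings, and they are given below as descriptions with no test.

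The study followed where methylated Jarid2 sits on chromatin and what its loss does to histone H3 trimethylated at lysine 27 (H3K27me3). Total Jarid2 and Jarid2-K116me2 were mapped by ChIP-seq in E14 ESC grown in serum and LIF, from a single sample for each antibody and therefore without replicates. H3K27me3 was mapped in 3 other ESC lines grown in serum and LIF: a Jarid2 -/- line (KO), the same line carrying a Jarid2 bacterial artificial chromosome (WT), and the same line carrying that chromosome with that lysine changed to alanine (K116A). Each was measured as ESC and as embryoid bodies (EBs) formed by the hanging drop method and collected after 8 days without LIF, in 2 replicates described as independent biological samples, which makes 12 samples. All 3 lines therefore share the deletion of the endogenous gene and none of them is E14, and whether each rescued line is a clone is not given in the sources used here. Read counts in the peaks were not used here, and precision is limited by the number of peaks. The study gives total reads for every sample, but these were not used in the comparisons below. By those totals, the shortest list of broad peaks came from the ESC sample with the most reads left after removal of duplicates. The length of a list is therefore not read as sequencing depth. The 12 lists of H3K27me3 held between 1478 and 14125 broad peaks and covered between 2.31 and 55.0 Mb. The shortest was WT ESC replicate 1, and in every group replicate 1 covered less than replicate 2.

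Jarid2 is a DNA-binding partner of Polycomb repressive complex 2 (PRC2), the enzyme that methylates H3K27. In ESC it is best known at CpG islands, the CpG-rich stretches that cover many promoters, and above all at silent genes for developmental transcription factors. H3K27me3 usually spreads beyond the sites where PRC2 is bound, into domains that can cover whole genes. Eed, a subunit of PRC2, reads methylated lysines of H3 and of Jarid2.

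The members fell along a range whose ends differ in sequence. The central 300 bases of 4 members, from the plus strand of NCBIM37 (mm9), show that range, with every CpG dinucleotide in capitals. The first lies 580 bp from a strong common region upstream of Msx1, a homeobox gene of craniofacial and limb development (chr5:38222685-38222984), and holds 3 CpGs. The second is from the strongest member, downstream of Cdkn1c, an imprinted inhibitor of cyclin-dependent kinases (chr7:150624061-150624360), and holds 18. The third lies far from any common region, upstream of Csda, a cold-shock domain protein gene (chr6:131383690-131383989), and holds 26. The last, from chromosome 9 (chr9:120597933-120598232), is part of a tandem array in which copies of a unit of 61 bp follow each other.
Msx1 member: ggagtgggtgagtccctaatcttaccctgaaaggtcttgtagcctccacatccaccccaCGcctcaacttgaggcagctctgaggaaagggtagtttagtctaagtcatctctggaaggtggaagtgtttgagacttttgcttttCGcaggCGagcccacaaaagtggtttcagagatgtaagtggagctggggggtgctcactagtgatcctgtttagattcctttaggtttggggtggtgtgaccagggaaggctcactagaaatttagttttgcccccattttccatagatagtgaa
Cdkn1c member: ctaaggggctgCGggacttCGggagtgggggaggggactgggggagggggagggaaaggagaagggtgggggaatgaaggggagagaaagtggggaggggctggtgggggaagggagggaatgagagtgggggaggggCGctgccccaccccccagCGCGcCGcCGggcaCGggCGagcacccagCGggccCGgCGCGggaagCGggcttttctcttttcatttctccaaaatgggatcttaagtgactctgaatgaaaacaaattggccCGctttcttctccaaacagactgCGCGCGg
Csda member: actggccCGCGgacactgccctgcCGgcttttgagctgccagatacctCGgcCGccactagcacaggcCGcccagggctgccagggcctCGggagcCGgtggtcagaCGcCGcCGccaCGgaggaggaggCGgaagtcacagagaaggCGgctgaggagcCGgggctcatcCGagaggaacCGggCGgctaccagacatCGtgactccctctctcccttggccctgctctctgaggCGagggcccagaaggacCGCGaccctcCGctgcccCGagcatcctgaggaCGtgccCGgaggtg
Chromosome 9 member: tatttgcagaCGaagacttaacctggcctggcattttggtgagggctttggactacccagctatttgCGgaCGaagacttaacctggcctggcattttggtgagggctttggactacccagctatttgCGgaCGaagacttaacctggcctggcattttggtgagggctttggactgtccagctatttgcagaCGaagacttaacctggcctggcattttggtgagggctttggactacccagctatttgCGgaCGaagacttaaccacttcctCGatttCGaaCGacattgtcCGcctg

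Members were weak and narrow peaks. The score of a peak, which the caller gives as the log10 of its p-value multiplied by minus 10, had a median of 97.7 over the members (quartiles 77.5 and 143). It ran from 62.1 to 545. Over all 4925 Jarid2 peaks outside the repeat array the median was 518 (quartiles 173 and 1720). The 480 Jarid2-only peaks at start sites were as low as the members (median 106, quartiles 80.1 and 142), whereas the 1241 common peaks away from start sites were far higher (median 915, quartiles 330 and 2939). The Jarid2-K116me2 list ends at a score of 91.86 and the Jarid2 list at 62.07, and 233 members (44.9%) scored below the end of the other list. Median width was 878 bp in members and 2427 bp in distal common peaks. Because score and width go with the rule, the 162 distal common peaks with a score under 200 served as a second comparison class, called weak distal common peaks here. Their median score was 137 and their median width 1000 bp.

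The limit of 1000 bp cut through a continuous range of distances. The members closest to it were 1005 bp from the start of Gdf11 (score 284), 1016 bp from Sgcb (score 210) and 1018 bp from Mtap7d1 (score 160). The Jarid2-only peaks just left out were 997 bp from Gm3764 (score 98.0), 992 bp from Fgfr4 (score 70.6) and 981 bp from Furin (score 62.4).

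Only 24 members scored over 300. The strongest was the Cdkn1c member (chr7:150622646-150625775, score 545), which lay in intergenic DNA 22744 bp downstream of the start of Cdkn1c and 2955 bp from a common region with a score of 3100, a value at which the highest scores pile up. The next were an intronic member at Cdkn2a, which encodes cell-cycle inhibitors of the Rb and p53 pathways (chr4:88929398-88931651, score 446), a member in an intron of a noncoding transcript next to the eye homeobox gene Vax2 (chr6:83648292-83650631, score 441), the Msx1 member (chr5:38221787-38223883, score 439) and an intronic member at the zinc-finger gene Zfp467 (chr6:48390621-48393195, score 424). Lmx1b, a LIM-homeobox gene of limb and dopaminergic neuron development (chr2:33437349-33439917, score 419), Myof, a gene for a membrane-repair protein (chr19:37956280-37958552, score 406), and Nr2f1, an orphan nuclear receptor gene (chr13:78323908-78326661, score 406), followed. These 8 members lay between 14 and 2955 bp from a common region. The other 2 of the top 10 did not: the tandem array on chromosome 9 (chr9:120596993-120599172, score 396) was 381983 bp away, and a member within an intron of Pappa, which encodes a metalloprotease that cleaves IGF-binding proteins (chr4:64900766-64903294, score 394), was 112386 bp away.

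**Figure D1:**
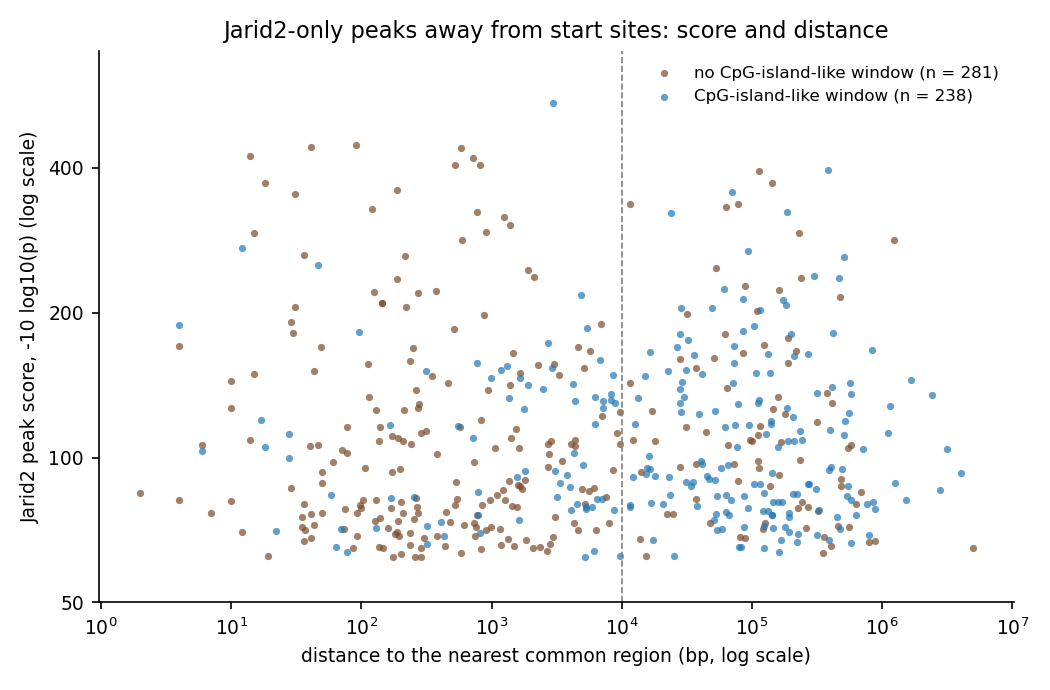
Each point is a member, placed by its distance to the nearest common region (x axis, bp, log scale) and by its Jarid2 score (y axis, log scale), and coloured by whether its central 500 bp hold a CpG-island-like window (238 members) or not (281). The dashed line marks 10 kb, with 274 members at or below it and 245 above. High scores occur on both sides, and members without such a window crowd on the left.

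Most members were not far from genes. The median distance from a midpoint to the nearest start was 6345 bp (quartiles 2710 and 19826), with 216 members (41.6%) no more than 5 kb away and 27 over 100 kb away. Introns held 183 members (35.3%, 95% Wilson interval 31.3 to 39.5), exons 87 (16.8%, 13.8 to 20.2) and intergenic DNA 249 (48.0%, 43.7 to 52.3). Of the exonic midpoints, 67 were in coding sequence, 12 in UTRs and 8 in noncoding exons. For 138 members (26.6%) the nearest start belonged to a noncoding gene. The member farthest from a start (chr3:35239619-35240387, score 67.0) was 394292 bp from one and carried no H3K27me3 peak in any sample. The next were upstream of Cntnap2, a neuronal adhesion gene (chr6:44742642-44743280, 267099 bp from the nearest start), downstream of 4930546C10Rik (chr18:68851488-68852169, 257966 bp), between Med13l and its neighbours (chr5:119500676-119501553, 246139 bp) and upstream of Tmem132c (chr5:127238939-127239869, 245053 bp). All 5 had scores of at most 111. Chromosome 11 held 72 members (13.9%), against 8.75% of all Jarid2 peaks outside the array. Chromosome 7 held 48 (9.25%, against 5.97%), and chromosome 14 held 9 (1.73%, against 3.96%).

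A common region is the union of overlapping Jarid2 and Jarid2-K116me2 peaks, and 3875 of them lay outside the array. The gap between a member and the nearest of these had a median of 7047 bp (95% interval 4607 to 13776), and its quartiles were 422 and 112374 bp. This median depends on the rule: it was 2124 bp when only an overlap of 50% ended membership, 22545 bp when a Jarid2-K116me2 peak within 500 bp ended it or when members had to be more than 5 kb from a start, and 37564 bp at 10 kb. At one end, 169 members (32.6%) were within 1 kb of a common region and 63 within 100 bp. At the other, 139 (26.8%) were over 100 kb away and 11 over 1 Mb. Within 10 kb lay 274 members (52.8%, Wilson interval 48.5 to 57.1), called near members here, and the other 245 are called far.

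The common regions beside the 169 closest members were strong. Their highest Jarid2 score had a median of 2565 (quartiles 656 and 3100), and 42.6% of them scored 3100 or more, against a median of 813 and 19.4% over all common regions. They were also wide, with a median of 3749 bp against 2321 bp, and fewer were centred within 1 kb of a start (47.9% against 68.9%). The 169 members adjoined 166 different regions, so nearly each had a region of its own. The shortest gaps were 2 bp at Rnf130, an E3 ubiquitin ligase gene (chr11:49839580-49840334), 4 bp at Gm1564 (chr11:102527848-102528623), 4 bp at Cdkn2a (chr4:88936547-88938005), 4 bp near Skor1, a co-repressor gene of spinal cord neurons (chr9:62982399-62984117), and 6 bp at Col8a2, a collagen gene (chr4:125964897-125966065). The Zfp467 member with a score of 424 ended 14 bp from a region that scored 3100.

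Some loci held several members. Zic4, a zinc-finger gene of cerebellar development, was the nearest protein-coding gene of 6 members, of which 4 were within 1 kb of a common region. Nr2f1 had 4, with gaps from 37 to 1102 bp. In all, 113 members (21.8%) had another member within 10 kb. The 4 Hox clusters with 20 kb on each side held 12 members, namely 6 at Hoxb, 3 at Hoxa, 2 at Hoxc and 1 at Hoxd, with scores from 65.3 to 245, and all 12 were near members.

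Far members also came in groups. Pappa held 4 within its introns, between 109422 and 125714 bp from the nearest common region, with scores of 202, 394, 71.1 and 72.9. Gm766 had 4 members at least 226250 bp from a common region, with scores from 78.5 to 293. The member farthest from a common region (chrX:122353935-122354438, score 64.8) was 4947004 bp away, and its central 300 bases had at least 20 copies elsewhere in the genome. It was followed by a member in the coding exon of Pcdh20, a protocadherin gene (chr14:88869008-88869761, 4019919 bp), the Csda member (chr6:131383404-131384275, 3131990 bp), a member upstream of the vomeronasal receptor gene Vmn2r86 (chr10:129907025-129907858, 2802954 bp) and one upstream of Dsel (chr1:114312450-114313474, 2431937 bp). The scores of these last 4 ran from 85.6 to 135.

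CpG content was higher in members farther from a common region. The CpG ratio (observed over expected CpGs in the whole peak) had a median of 0.25 in members within 1 kb (95% interval 0.20 to 0.28), 0.39 from 1 to 10 kb (0.35 to 0.43), 0.51 from 10 to 100 kb (0.47 to 0.54) and 0.53 over 100 kb (0.48 to 0.56). A CpG-island-like window, meaning 200 bp with a GC content of at least 50% and a ratio of at least 0.6 in the central 500 bp, was present in 17.8% (Wilson 12.7 to 24.2), 41.9% (32.9 to 51.5), 68.9% (59.5 to 76.9) and 65.5% (57.2 to 72.9) of these groups. Over all members the median ratio was 0.39 and the share with a window 45.9%. Weak distal common peaks had 0.60 and 82.7%, distal common peaks 0.55 and 72.0%, and Jarid2-only peaks at start sites 0.58 and 73.1%. Thus the members closest to a common region had a lower median CpG ratio than every other class, and far members were nearer to the common classes without reaching the weak distal common peaks. Peaks of 1 sample are not replicates, so these intervals cover the sampling of peaks only and no test was run.

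**Figure D2:**
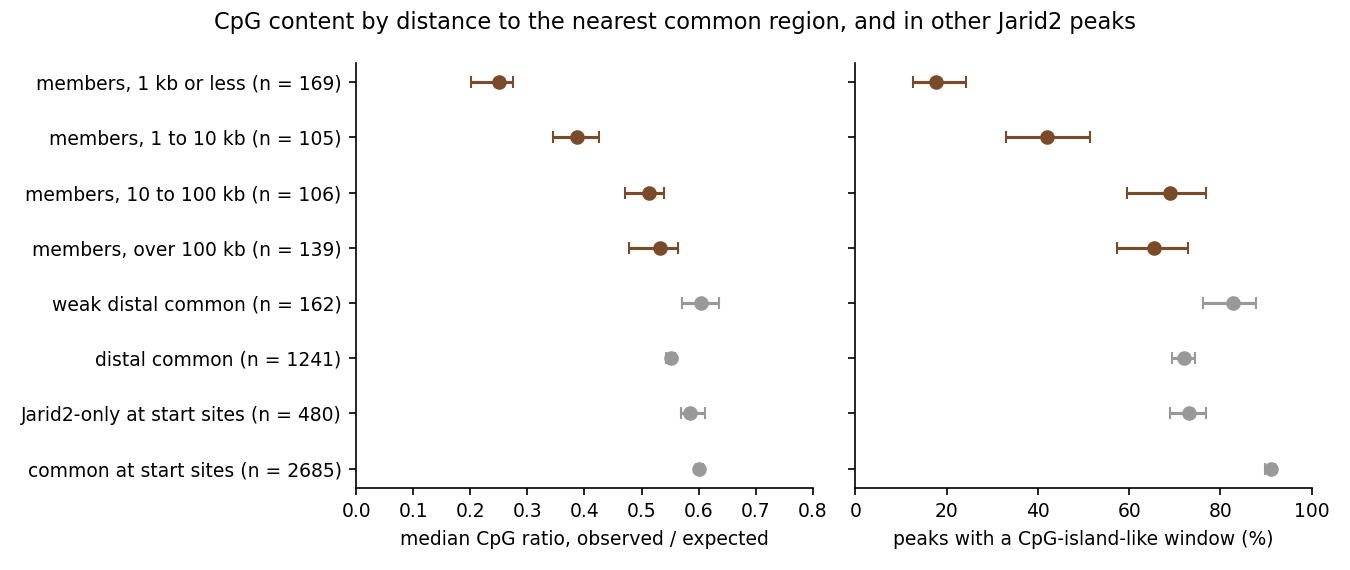
Left, median CpG ratio with its 95% interval; right, percent of peaks with a CpG-island-like window with its Wilson interval. Members are split by distance to the nearest common region (brown) and set beside the other classes of Jarid2 peaks (grey). Medians run from 0.25 within 1 kb to 0.53 over 100 kb, against 0.60 in weak distal common peaks.

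Short motifs were searched in the central 500 bp on both strands. CCGCCG was found in 19.7% of members, against 46.6% of all Jarid2 peaks outside the array, and in 12.4% of near members and 27.8% of far ones. GAGAGAGA was found in 6.55% of members and 6.34% of all peaks, and CACACACA in 9.83% and 7.27%. The 3 words cannot overlap by more than their end letters, and a match says nothing of binding. Sequences with copies elsewhere were few. A copy with at least 90% identity over at least 90% of the central 300 bases existed for 29 members (5.59%), against 5.10% of all peaks. Of the 29, 13 carried no H3K27me3 in any sample, against 23.5% of all members and 12.4% of all Jarid2 peaks outside the array. Copied peaks of the other classes were not counted. Internal repeats took over 10% of 6 members, among them the array on chromosome 9 (42.6% of its 20-base words), a member near Osr1 (78.2%) and the strong Cdkn2a member (30.4%). Reads that fit several places were given a single location by the authors, and the part of this in the scores was not tested.

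The genes nearest to members were often developmental regulators, mostly through near members. Developmental transcription factors, from a list of 324 genes, were the nearest protein-coding gene of 97 members (18.7%), against 10.1% of all Jarid2 peaks and 19.4% of distal common peaks. The share was 28.1% of near members and 8.16% of far ones, and 3.33% of Jarid2-only peaks at start sites. The 97 members belonged to 68 genes. The highest scores were the members of Vax2, Msx1, Lmx1b and Nr2f1 given above and an intronic member of Lhx4, a pituitary LIM-homeobox gene (chr1:157575927-157577819, score 295). Of the 97, 85 carried H3K27me3 in at least 1 sample and 61 in 6 or more. Of all 4925 Jarid2 peaks, 12.4% carried it in no sample, so the first count is at the background share. Of all members, 37.4% carried it in 6 to 11 samples and 3.47% in all 12. The matching share of all Jarid2 peaks was not counted for 6 or more samples. Tcfap2a and Tcfap2b, older symbols of this annotation, were not on the list and are not counted.

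Other groups were smaller. Signalling ligands and receptors were nearest to 16 members (3.08%, against 3.07% of all Jarid2 peaks), led by an intronic member of the Hedgehog receptor gene Ptch1 (score 372), members near Wnt8a (score 304) and Gdf11 (score 284), and members of the Wnt receptor gene Fzd10 (score 165) and the Notch ligand gene Dll4 (score 156). Ion channels and neurotransmitter receptors had 13 (2.50%, against 3.45%). Axon guidance genes had 7 (1.35%, against 1.30%), with Ephb3 (score 224) and Ntn1 (score 185) first. Imprinted genes also had 7 (1.35%, against 0.79%), namely at Cdkn1c, Dlk1 (score 152), Sfmbt2 (score 143), Peg12 (score 114) and others. CDK inhibitors had 5 (0.96%, against 0.32%), which were 3 at Cdkn2a and 2 at Cdkn1c. Pluripotency genes had 3, all at Tbx3, a T-box gene, with scores from 75.3 to 89.5 (0.58%, against 0.26%). No member was nearest to a Polycomb subunit gene, and 13 of all Jarid2 peaks were (0.26%). The shares of all Jarid2 peaks are the background of each list, and no test was run on them.

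H3K27me3 was not used to choose the members and was compared between classes within each of the 12 samples. The share of members overlapped by a broad peak was 22.7% and 66.7% in the 2 replicates of KO ESC, 4.24% and 51.8% in WT ESC, and 31.2% and 59.3% in K116A ESC. In EBs it was 36.2% and 41.6% in KO, 32.2% and 36.0% in WT, and 40.7% and 48.9% in K116A. The lowest value, in WT ESC replicate 1 (Wilson interval 2.82 to 6.33), came from the shortest list, and replicate 2 was above replicate 1 in all 6 groups. Members were therefore set against other peaks of the same sample. The paired tests below treat the 12 samples as independent, although they come from 3 lines that share the same Jarid2 -/- origin. Because the same peaks are read in each sample, the p-values describe how steady a difference is over samples. They do not cover the sampling of peaks.

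In each of the 12 samples fewer members than distal common peaks carried H3K27me3, by 24.3 percentage points on average (SD 4.13, n = 12; exact paired permutation test over samples, two-sided, p = 0.000488, the smallest it can give, adjusted p = 0.00122). The distal common peaks were also wider and stronger. Against weak distal common peaks the difference turned, and members were higher by 4.33 points (SD 4.56, higher in 10 of 12 samples; exact permutation p = 0.00781, adjusted p = 0.00977). The members include 61 with a score of 200 or more, and the comparison class by its definition has none. With members under that score only, the excess was 2.21 points and did not pass (exact permutation test, adjusted p = 0.121; chosen after seeing the data). In bins of score the mean share over the samples was 34.2% in members and 33.3% in distal common peaks under 100, 41.4% and 35.5% from 100 to 200, and 55.2% and 67.9% from 200. The excess over weak distal common peaks was 7.34 points in ESC (SD 3.61, n = 6) and 1.31 in EBs (SD 3.32, n = 6), and in both WT EB samples members were lower (exact permutation test of the difference, p = 0.0216, adjusted over 4 comparisons p = 0.0736). The excess reversed when a Jarid2-K116me2 peak within 500 bp ended membership: the difference was then -5.21 points, with members lower (adjusted p = 0.00122 by the same exact permutation test). The peaks that left the members then counted as common, and those with a score under 200 joined the weak distal common peaks. Both classes therefore changed, and the reversal cannot be assigned to the members alone. Members were higher than Jarid2-only peaks at start sites by 4.97 points (SD 3.63, 11 of 12 samples; exact permutation p = 0.00244, adjusted p = 0.00407). That value was 2.63 points with the 500 bp margin (exact permutation test, adjusted p = 0.0305) and 8.32 when the broad peak had to cover 50% of the Jarid2 peak.

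Within the members, H3K27me3 followed the distance to a common region. Near members were overlapped more often than far members in 12 of 12 samples, by 22.8 points on average (SD 7.98; exact permutation p = 0.000488, the smallest possible, adjusted p = 0.00122). In WT ESC replicate 1 the difference was 1.07 points, and in the other 11 samples it was between 16.8 and 32.4 points. The median share over the 12 samples was 59.5% of members within 1 kb of a common region, 37.6% from 1 to 10 kb, 25.9% from 10 to 100 kb and 24.1% beyond. Far members with a CpG-island-like window (164) had a mean share of 24.7% and the 81 without had 32.5%. Near members showed the wider contrast, with 33.6% for the 74 with a window and 56.2% for the 200 without. The share was higher without a window in 12 of 12 samples among near members. Among far members it was higher in 9 and lower in 3, which were both KO EB samples and WT EBs replicate 1. Window and distance were mixed among near members, since 17.8% of those within 1 kb had a window, against 41.9% from 1 to 10 kb. They were not separated, and these comparisons were not tested.

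**Figure D3:**
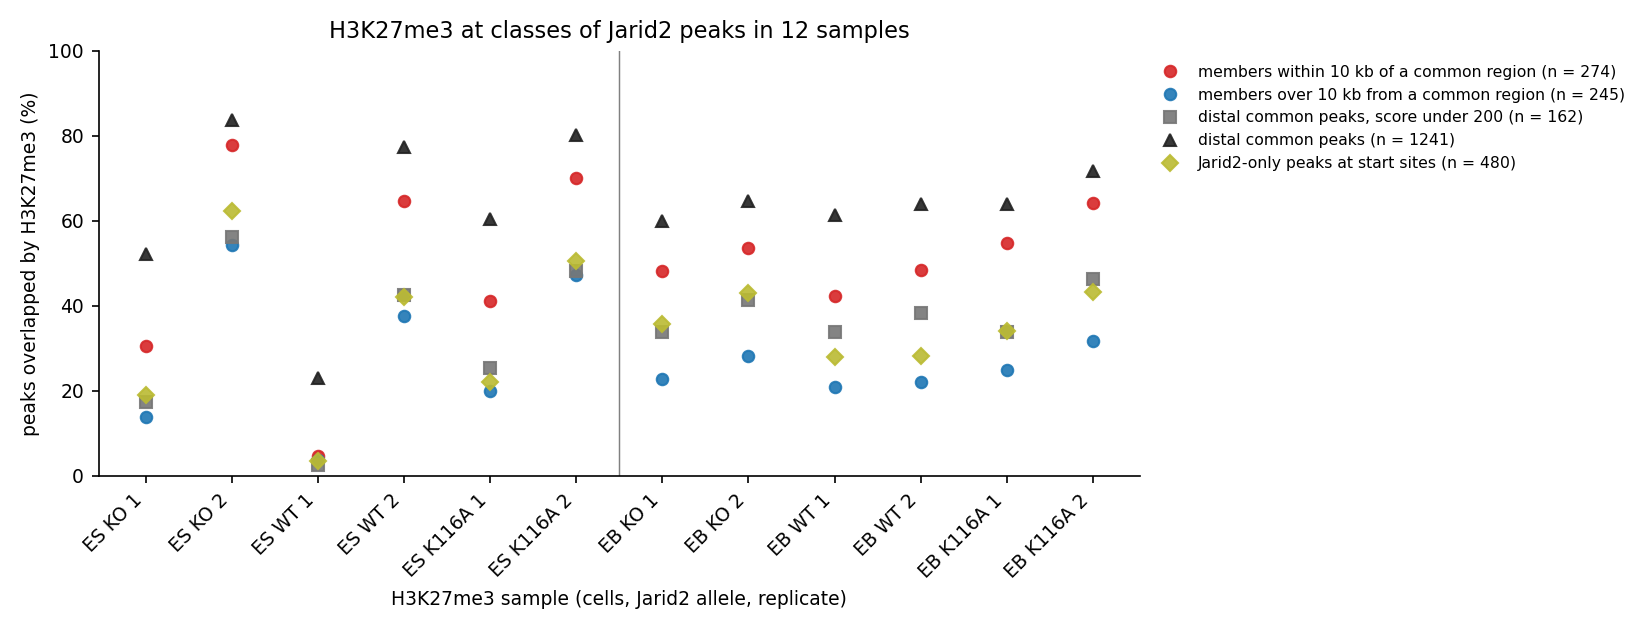
Percent of peaks overlapped by an H3K27me3 broad peak (y axis) in each of 12 samples (x axis: cells, Jarid2 allele, replicate), by class of Jarid2 peak. Near members (red) lie above far members (blue) in all 12 samples, and distal common peaks (black triangles) lie above both.

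**Figure D4:**
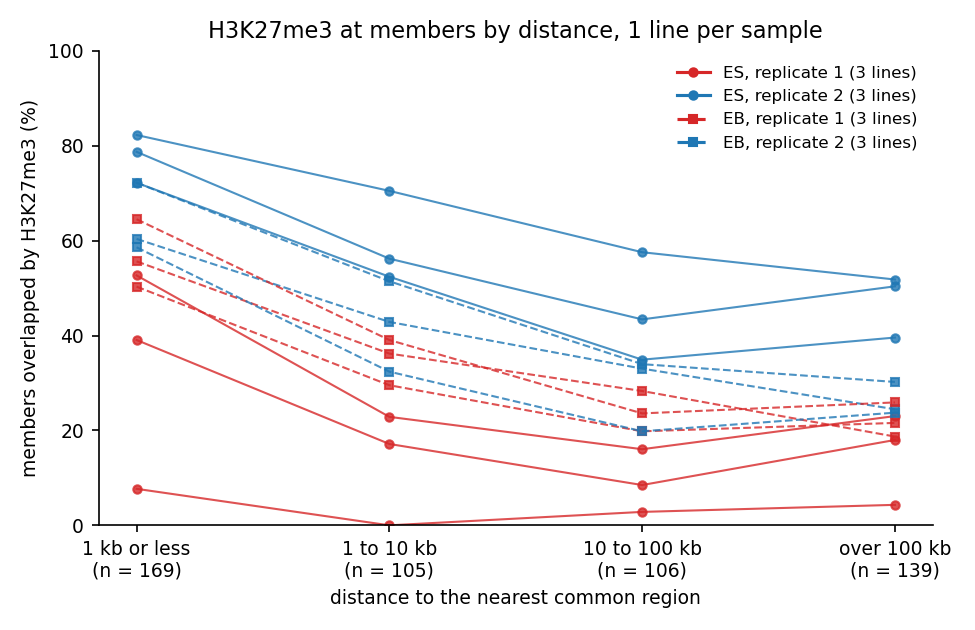
Percent of members overlapped by an H3K27me3 broad peak (y axis) in 4 ranges of distance to the nearest common region (x axis), with 1 line per sample. ESC samples are solid with circles and EB samples dashed with squares, in red for replicate 1 and blue for replicate 2. Every line is highest within 1 kb, where shares run from 7.69% to 82.2%.

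Where near members carried H3K27me3, the broad peak mostly overlapped a common region as well. Of the near members overlapped, between 59.3% and 90.5% per sample shared the broad peak with a common region, and of the far members between 0% and 2.59%. Counted over all 274 near members, these shares were between 2.92% and 65.7%. A far member lies over 10 kb from any common region by definition, so only a broad peak wider than that can be shared. The contrast in sharing is therefore largely set by the split and is not a finding. The broad peaks on near members also had a higher median score than those on far members in each of the 12 samples. In K116A EBs replicate 2, for example, the median broad-peak score was 153 on near members and 68.8 on far ones, and in WT ESC replicate 1 it was 60.01 and 56.0. The scale of these scores is not given in the sources used here. They are read only as an order within a sample, except in the mean that ranks members below.

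In total 122 members (23.5%, against 12.4% of the 4925 Jarid2 peaks) carried H3K27me3 in no sample, 34 of the near and 88 of the far ones (12.4% and 35.9%). It was present in all 12 samples at 18 members (3.47%, against 13.1%). H3K27me3 was in no sample at 33.3% of weak distal common peaks, 28.3% of Jarid2-only peaks at start sites and 11.4% of distal common peaks. It was in all 12 samples at 1.23%, 2.92% and 21.1% of these classes. Both replicates of KO ESC carried it at 22.7% of members (against 44.6% of the 4925 Jarid2 peaks), of WT ESC at 22 (4.24%, against 14.4%) and of K116A ESC at 160 (30.8%, against 53.4%). In EBs the counts were 186 in KO (35.8%, against 55.8%), 144 in WT (27.7%, against 51.2%) and 207 in K116A (39.9%, against 59.5%). In all 6 groups members were below the background of all Jarid2 peaks.

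Among the 10 members with the highest mean H3K27me3 score, 4 had a Hox gene as the nearest protein-coding gene. This mean pools all 12 samples although the scale of the scores is not known, so samples with high scores weigh most. First was a member in an intron of Hoxc4, a gene of axial patterning (chr15:102854859-102855756, Jarid2 score 65.3), 136 bp from a common region and with a CpG ratio of 0.049. Its broad-peak scores were 61.4 and 205 in KO ESC, 65.0 and 180 in WT ESC, and 81.1 and 161 in K116A ESC. In EBs they were 207 and 286 in KO, 169 and 147 in WT, and 313 and 440 in K116A. All 12 samples had a broad peak there, and apart from that mean the scores are not compared between samples. It was followed by members near Skor1, Ppp1r1b beside the neuronal gene Neurod2 (chr11:98202541-98203408), Hoxc4 again (chr15:102870904-102872518), Onecut3 (chr10:79967465-79968978), Hoxb2 (chr11:96219187-96220029), Hes7 (chr11:68929127-68929987), Gm53 (chr11:96115283-96116080), Hoxb13 (chr11:96043045-96044241) and Evx2 (chr2:74486447-74487253). All 10 were within 4531 bp of a common region and had Jarid2 scores from 65.3 to 263. Both Hoxc4 members had the same broad-peak score in each EB sample, and so did the Hoxb2 and Gm53 members. Such members are not counted as separate H3K27me3 domains. At Zfp467 no sample had a broad peak. At the Cdkn1c member only 4 samples had one, namely KO ESC replicate 2 (97.7), K116A ESC replicate 2 (80.2) and both replicates of K116A EBs (58.8 and 72.3).

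Of the far members, 7 (2.86%) carried H3K27me3 in all 12 samples, against 11 near members (4.01%) and 13.1% of all Jarid2 peaks. A gene of the developmental list was nearest to 8.16% of far members and to none of these 7, which are too few to show a difference. They lay near Celf5 (chr10:80914904-80915904), Mrps23 (chr11:88013710-88014526), Lcor (chr19:41513219-41515014), Lsm14b (chr2:179757202-179759170), Oas1f (chr5:121285196-121286645), Atp5l-ps1 (chr7:69626729-69628007) and Rtbdn (chr8:87469206-87469961), all in intergenic DNA. Their gaps to a common region ran from 17009 to 143272 bp. Their CpG ratios were, in that order, 0.46, 0.083, 0.22, 0.35, 0.088, 0.078 and 0.61. Most were below the median of far members, 0.53, and only the Rtbdn member was above it. At the Rtbdn member, 1306 bp upstream of this gene of retinal riboflavin binding, the broad-peak scores were 80.9 and 142 in KO ESC, 59.7 and 119 in WT ESC, 73.4 and 84.6 in K116A ESC, 135 and 220 in KO EBs, 99.1 and 83.6 in WT EBs, and 67.5 and 84.8 in K116A EBs.

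**Figure D5:**
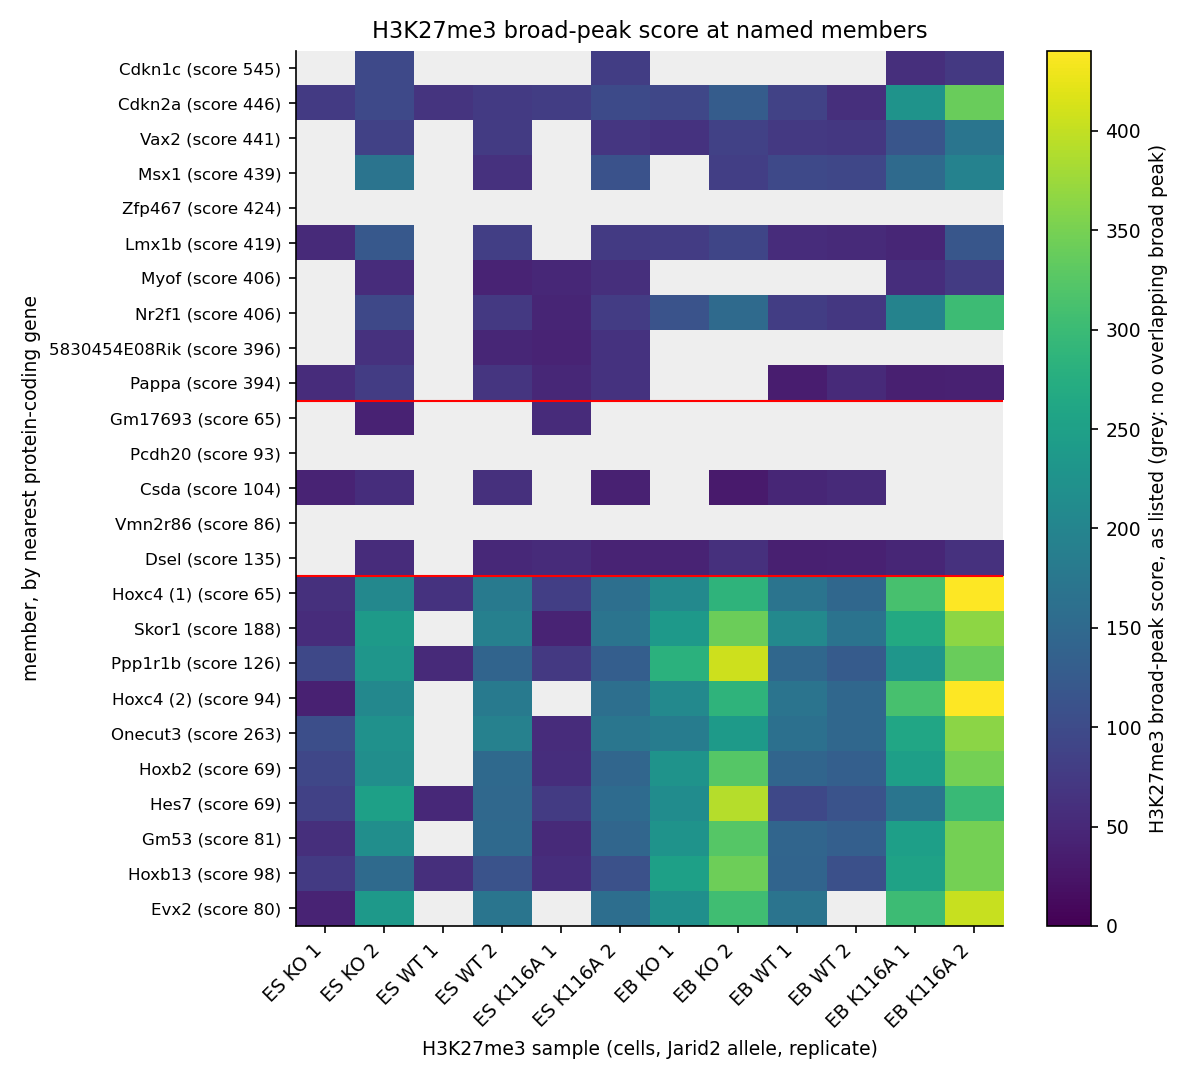
Score of the highest H3K27me3 broad peak overlapping each named member (colour, as listed by the peak caller; grey, none) in 12 samples (x axis). From the top, the rows are the 10 members with the highest Jarid2 score, the 5 farthest from a common region and the 10 with the highest mean H3K27me3 score. The last 10 are filled in nearly all samples, and the 5 in the middle are mostly grey except Dsel and Csda.

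The shares of members with H3K27me3 in ESC and in EBs overlapped. The mean was 39.3% (SD 24.0, n = 6) in ESC and 39.3% (SD 5.85, n = 6) in EBs, a difference of -0.064 points (exact permutation test, two-sided, p = 1, adjusted p = 1). The replicates moved in opposite directions. From ESC to EBs the replicate 1 samples differed by 13.5 points in KO, 27.9 in WT and 9.44 in K116A, and the replicate 2 samples by -25.0, -15.8 and -10.4. Over all Jarid2 peaks the same differences were 11.9, 40.2 and 6.40 in replicate 1 and -20.2, -15.2 and -8.24 in replicate 2, so the signs matched those of the members. In replicate 1 alone the mean difference was 17.0 points and in replicate 2 alone -17.1 (3 against 3 samples, exact permutation p = 0.1 in each, the smallest possible). The methods of the study call the second replicates those of better quality, and the lists of ESC replicate 1 were the short ones. The near against far difference was 18.7 points in ESC (SD 9.27) and 26.8 in EBs (SD 3.81), a difference that did not pass after adjustment (exact permutation p = 0.0368, adjusted over 4 comparisons p = 0.0736). Members carrying the mark in at least 1 ESC sample but in no EB sample were 98 (18.9%, against 13.5% of all Jarid2 peaks), and the reverse held for 27 (5.20%, against 3.33%). Jarid2-only peaks at start sites had nearly the same shares as members, 18.96% and 5.42%. The shares were 14.8% and 8.64% in weak distal common peaks, and 11.1% and 2.90% in distal common peaks. The mark in ESC only is therefore not particular to members. Rgma, an axonal repulsion gene, is an example of it, since its 4 members had a broad peak in 2 to 4 of the 6 ESC samples and in no EB sample.

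The 3 lines of EBs have 2 samples each, for which an exact test cannot go below a p of 0.33, so they are described with no test. A broad peak in both replicates of K116A EBs and in neither of WT EBs was found at 39 members (7.51%, against 6.11% of all Jarid2 peaks), and the reverse at 4 (0.77%, against 1.04%). In both replicates of KO EBs and neither of WT EBs it was found at 27 (5.20%, against 4.43%), and the reverse at 8 (1.54%, against 2.36%). Between K116A and KO EBs the counts were 42 present in K116A only (8.09%, against 6.48%) and 17 in KO only (3.28%, against 2.27%). The list of KO EBs replicate 2 covered 55.0 Mb and that of WT EBs replicate 1 covered 19.6 Mb, and the part of list length in these counts was not tested.

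The scores below are those of EBs, with ESC given after them. A member of Wnt3a, a ligand gene of early patterning (chr11:59097598-59098560), had broad-peak scores of 202 and 270 in KO EBs, none in WT EBs, and only 157 in replicate 2 of K116A EBs, and no ESC sample had one. At the guidance gene Ntn1 (chr11:68204950-68206110) the scores were 125 and 175 in KO EBs, none in WT EBs, and 46.8 and 102 in K116A EBs, again with none in ESC. At Lhx1, a LIM-homeobox gene of kidney and head development (chr11:84345066-84345964), only K116A EBs among the EB samples had a broad peak, with 106 and 214. It was also present in ESC, with 225 in KO replicate 2, 141 in WT replicate 2, and 61.9 and 122 in K116A. The Tcfap2b member (chr1:19220858-19222741) likewise had 168 and 241 in K116A EBs and none in KO or WT EBs, while 4 ESC samples had one, with scores from 53.4 to 92.1. At Myod1, the muscle regulator (chr7:53633358-53634012), KO EBs had one, with 58.5 and 98.2, and so did KO ESC replicate 2, with 48.0. Dlx6, a forebrain and limb homeobox gene, went the other way, since its member (chr6:6801307-6802396) had none in KO EBs, 179 and 145 in WT EBs, and 175 and 262 in K116A EBs, beside 151 in KO ESC replicate 2 and 187 in WT ESC replicate 2. The same held for the Pappa member with the high Jarid2 score, which had none in KO EBs, 35.4 and 52.8 in WT EBs, and 39.6 and 39.7 in K116A EBs, and which had a broad peak in 5 ESC samples. Csda and Tacc1 (chr8:26350556-26351828), both far from a common region, were among the 4 members present in WT EBs and absent in K116A EBs. In WT EBs the scores were 47.0 and 53.3 at Csda and 40.9 and 50.9 at Tacc1. KO EBs had 56.0 and 48.4 at Tacc1, and at Csda 32.6 in replicate 2 only. Both members had a broad peak in ESC samples, 4 at Csda and 3 at Tacc1.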

How the data were processed

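ChIP-seq peak lists were analysed for 14 of the 16 samples. The inputs were not analysed here. The authors mapped single reads to mm9 with Bowtie2 2.1.0, giving a single location to reads that fit several, removed PCR duplicates, and called peaks of each sample against input, with MACS 1.4.2 for Jarid2 and Jarid2-K116me2 and MACS2 2.0.10 in broad mode for H3K27me3. The value deposited with each peak is the authors' score, which is not normalized for depth. For Jarid2 it is the log10 of the p-value multiplied by minus 10. For broad peaks its scale is not given in the sources used here, and no fold enrichments or q-values were used, so H3K27me3 members were ranked by score. All 9494 peaks of both E14 lists lie within NCBIM37, whose GENCODE annotation gave starts, exons and introns. Overlaps needed 1 bp. Copies were searched with minimap2 2.31. Members and gene lists were chosen with earlier results of these data known. Named members were the 10 highest by Jarid2 score and by mean H3K27me3 score, the 5 extremes of each distance, 3 on each side of the start limit, up to 5 per pair of EB lines and up to 5 per gene list. Gm766, Zic4, Nr2f1 and Rgma as loci, and the far members with H3K27me3 in all samples, were chosen after their values were seen. Shares were compared over samples by exact permutation tests with Benjamini-Hochberg adjustment over 5 tests. Intervals are 95%. Overlap, distance and test functions were tested on simulated lists. Alternatives varied the overlap, the start limit, the score, the broad peaks used and the samples. Scripts used Python 3.11.15, pandas 2.3.3, scipy 1.17.1 and pysam 0.24.0.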

Additional observations from a re-analysis of the deposited data

How the results depend on the processing

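The settings added after seeing the data were broad peaks with a score of 50 or more, lists cut to equal covered length, midpoint overlap, members with a score under 200 only, members without copies elsewhere, and the 500 bp margin for H3K27me3. The number of members was 303 when they had to be more than 5 kb from a start, 210 at 10 kb and 286 when Jarid2 peaks had to reach the lowest Jarid2-K116me2 score. The share of members within 10 kb of a common region was 44.4% when a Jarid2-K116me2 peak within 500 bp ended membership, 61.0% when only an overlap of 50% did, and 42.9% and 33.8% at 5 kb and 10 kb from a start. The median CpG ratio was 0.46 at 10 kb. With a score under 100 for weak distal common peaks, members exceeded them by 5.97 points but missed the threshold (exact permutation test, adjusted p = 0.101). With members under 200 only it was 2.21 (exact permutation test, adjusted p = 0.121), and with the 500 bp margin -5.21. That margin also moved the peaks that left the members into the common class. Leaving out samples moved the 4 differences between classes from -25.6 to -22.9 (distal common), 3.39 to 5.27 (weak distal common), 4.12 to 5.81 (start sites) and 19.3 to 26.3 points (near against far). They missed the threshold only when replicate 1 or replicate 2 of every group was left out, where 6 samples allow no p under 0.0312 by the exact permutation test. With lists of equal length they were -4.62, 3.85, 3.66 and 8.86 points. The difference between EBs and ESC had no stable sign: it was 3.76 with an overlap of 50%, 3.31 by midpoint, 2.41 with scores of 50 or more, 0.93 with equal length, 0.22 at 5 kb and 0.34 without copies, and leaving out samples it ran from -17.1 to 17.0, with every adjusted p at or above 0.0606. The replicate block gave -0.064 (exact permutation p = 1). Replicate numbers were not taken as pairing the samples, since deviations of same-numbered ESC and EB samples correlated at only 0.12 in KO, 0.069 in WT and 0.0997 in K116A. Same-numbered ESC samples of different lines correlated at 0.446 for KO and K116A, 0.205 for KO and WT and 0.149 for WT and K116A, and all 3 lines changed in the same direction within a replicate number. The q-value and fold-enrichment alternatives were not run. Without read counts, an absent Jarid2-K116me2 or H3K27me3 peak cannot be told apart from 1 just under the caller's threshold.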
